A study of Mus musculus with 2 samples.

Results

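Zbtb16 and 9 genes of glucocorticoid signalling were followed through the cell classes of the newborn mouse kidney. The 10 genes were taken by symbol from the 55488 gene rows shared by both count matrices, and each had UMIs (unique molecular identifiers, which count captured RNA molecules) in both libraries. Zbtb16 was picked for its higher level in the stroma and endothelium of the knockout library, so its values there are a description. The other 9 were picked for their known roles: the receptors Nr3c1 and Nr3c2, the enzymes Hsd11b1 and Hsd11b2, and the hormone-induced genes Fkbp5, Tsc22d3, Per1, Klf9 and Sgk1. They were chosen with earlier results of these data known, so their counts are a description too.

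The study profiled single cells of kidneys at postnatal day 0 to ask how expression in the nephron lineage responds to loss of Flcn, the gene of the lysosomal signalling protein folliculin. The library labelled Flcn WT carried Six2Cre with Flcn flox/+, and the library labelled Flcn KO carried Six2Cre with Flcn flox/flox, so both carried the Cre and the WT library was heterozygous. Six2-Cre acts in nephron progenitors and is inherited by the epithelium of the nephron they form. Stroma, mural cells, endothelium, immune cells and the ureteric bud with its collecting duct lie outside that lineage. There was 1 library per group, the number of animals in each is not stated, and the tissue label reads embryonic kidney. With 1 library a group no test was possible, no p-value is given, and genotype, animal and preparation cannot be told apart. All intervals below are 95% intervals and cover counting error only.

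Glucocorticoids enter the cell and bind the glucocorticoid receptor, encoded by Nr3c1, which chaperones hold ready in the cytoplasm and which then moves to the nucleus and acts on target genes. The mineralocorticoid receptor, encoded by Nr3c2, binds aldosterone and also glucocorticoids, and in aldosterone-responsive tubule cells the enzyme of Hsd11b2 inactivates glucocorticoids before they reach it. The enzyme of Hsd11b1 runs the opposite reaction and regenerates active hormone. Fkbp5, Tsc22d3, Per1, Klf9 and Sgk1 are widely used readouts of this signalling, and Zbtb16, which encodes the zinc finger repressor PLZF, is a glucocorticoid-induced gene in several human and mouse cell types.

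Depth was alike: 147390790 UMIs over 5572 barcodes in the WT library and 149679281 over 5991 in the KO library. After filters on depth and mitochondrial share (at most 20%) and removal of doublet candidates, barcodes likely to hold more than a single cell, 4000 WT and 4798 KO cells were kept, with medians of 20967.5 and 18458 UMIs, and 1 kept barcode sequence occurred in both libraries. Cells were assigned to classes by marker genes, and each gene is given as the UMIs summed over a class in a library and as CPM, the gene's share of that class's nuclear-encoded UMIs scaled to 1000000. The ratio is KO over WT CPM, and a gene was compared in a class where both libraries together gave at least 50 UMIs. Flcn itself had 1553 UMIs in the WT and 1418 in the KO library, a ratio of 0.900 (interval 0.837 to 0.968). The counts do not say which part of Flcn was floxed, so this is no check of the deletion. Of 7 markers of the adrenal cortex, the gland that makes glucocorticoids and lies on the kidney, the enzyme genes of the late steps were at or near 0 in the kept cells of the WT and KO libraries, with 1 and 2 UMIs of Cyp11b1, 1 and 1 of Cyp21a1 and 0 of Cyp11b2 in both. The others had 18 and 28 UMIs (Cyp11a1, the first enzyme of the pathway), 21 and 34 (Nr5a1), 95 and 168 (Mc2r) and 493 and 438 (Star, a cholesterol carrier), and their part in the results was not tested.

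The promoter letters show which of these genes carry the receptor's binding motif close to a start site. RefSeq windows on GRCm38.p6, from 250 bases before to 50 after a start, were held for 7 of the 10 genes, in 15 windows. The full palindrome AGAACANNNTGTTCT, which reads the same on both strands, was found in 3 of 32851 windows of the table (0.00913%), among them 1 of Sgk1. A lone AGAACA or its reverse complement TGTTCT, either of which also counts when it is part of the palindrome, was in 19.0% of all windows and in 4 of the 15, namely 3 of Sgk1 and 1 of Tsc22d3. The 250 bases before the start are printed 5′ to 3′ on the gene's strand for the Sgk1 window with the palindrome, the Tsc22d3 window with a lone motif, and Fkbp5 as a window without a match, with each AGAACA or TGTTCT in capitals. The Sgk1 stretch is chr10:21993640-21993889 on the plus strand, with the palindrome starting 189 bases before the start site. The Tsc22d3 stretch is chrX:140600523-140600772 and the Fkbp5 stretch chr17:28486150-28486399, both on the minus strand. A match is a description of letters, and its absence says only that these letters are not in this window.
Sgk1: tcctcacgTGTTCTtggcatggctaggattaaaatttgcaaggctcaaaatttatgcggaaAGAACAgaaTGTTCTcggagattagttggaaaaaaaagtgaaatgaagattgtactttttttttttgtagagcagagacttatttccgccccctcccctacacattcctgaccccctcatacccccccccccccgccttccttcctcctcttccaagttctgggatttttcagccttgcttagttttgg
Tsc22d3: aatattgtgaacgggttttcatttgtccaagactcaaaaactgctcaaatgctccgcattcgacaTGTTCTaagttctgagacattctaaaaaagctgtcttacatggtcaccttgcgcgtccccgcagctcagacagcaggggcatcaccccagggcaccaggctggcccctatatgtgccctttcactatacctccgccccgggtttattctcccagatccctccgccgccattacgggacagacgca
Fkbp5: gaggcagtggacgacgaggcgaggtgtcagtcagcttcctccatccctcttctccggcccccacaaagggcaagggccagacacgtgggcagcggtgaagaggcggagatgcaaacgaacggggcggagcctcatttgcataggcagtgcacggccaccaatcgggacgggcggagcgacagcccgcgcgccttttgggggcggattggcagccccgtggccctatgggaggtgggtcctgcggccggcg

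Zbtb16 and Fkbp5 were each at least 1.5-fold higher in the KO library in 9 of 11 classes. Klf9 was so in 6 of 11, Nr3c2 in 2 of 10 and Nr3c1 in 0 of 11. Without that limit, Fkbp5 and Klf9 were each higher in 10 of 11 classes, and each receptor gene in 5. In stroma, 5 of the 10 genes were at least 1.5-fold higher in the KO library and 0 at least 1.5-fold lower, where 4.81% of the 15660 genes compared were higher and 3.14% lower. In endothelium the count was 2 of 8, beside 3.62% of all genes, and the 2 were Zbtb16 and Fkbp5, with 0 lower (2.65%). Because Zbtb16 was chosen from these classes, nothing is read from its part in those counts. In mural cells 3 of 8 were higher (5.63% of all genes) and 1 lower (4.9%). In immune cells 4 of 8 were higher (7.05%) and 0 lower (8.49%), and in the ureteric bud and collecting duct 2 of 9 higher (3.72%) and 0 lower (3.1%). Intercalated cells, at 42 WT and 14 KO cells too few to be counted among the 11 classes, had 2 of 9 higher (8.1%) and 3 lower (6.23%).

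Within the Six2 lineage the nephron progenitors had 0 of 9 genes past 1.5-fold in either direction, beside 4.22% of all genes higher and 4.38% lower. Early nephron cells had 2 of 9 higher (5.13% of all genes) and 0 lower (4.67%). Podocytes had the most, with 6 of 8 higher (10.6%) and 0 lower (6.31%), although several of these rest on few UMIs. Proximal tubule had 4 of 9 higher (9.08%) and 1 lower (11%), loop of Henle 4 of 8 higher (10.2%) and 0 lower (13.8%), and distal tubule 3 of 9 higher (11.8%) and 1 lower (13.7%). With 9 genes compared, the progenitor count of 0 lies near the shares of all genes, so nothing is read from it. Below the 1.5-fold limit, Nr3c1 at 0.772 (0.680 to 0.876) and Hsd11b2 at 0.791 (0.710 to 0.879) were lower in KO progenitors. The intervals of the other genes held 1 there.

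**Figure D1:**
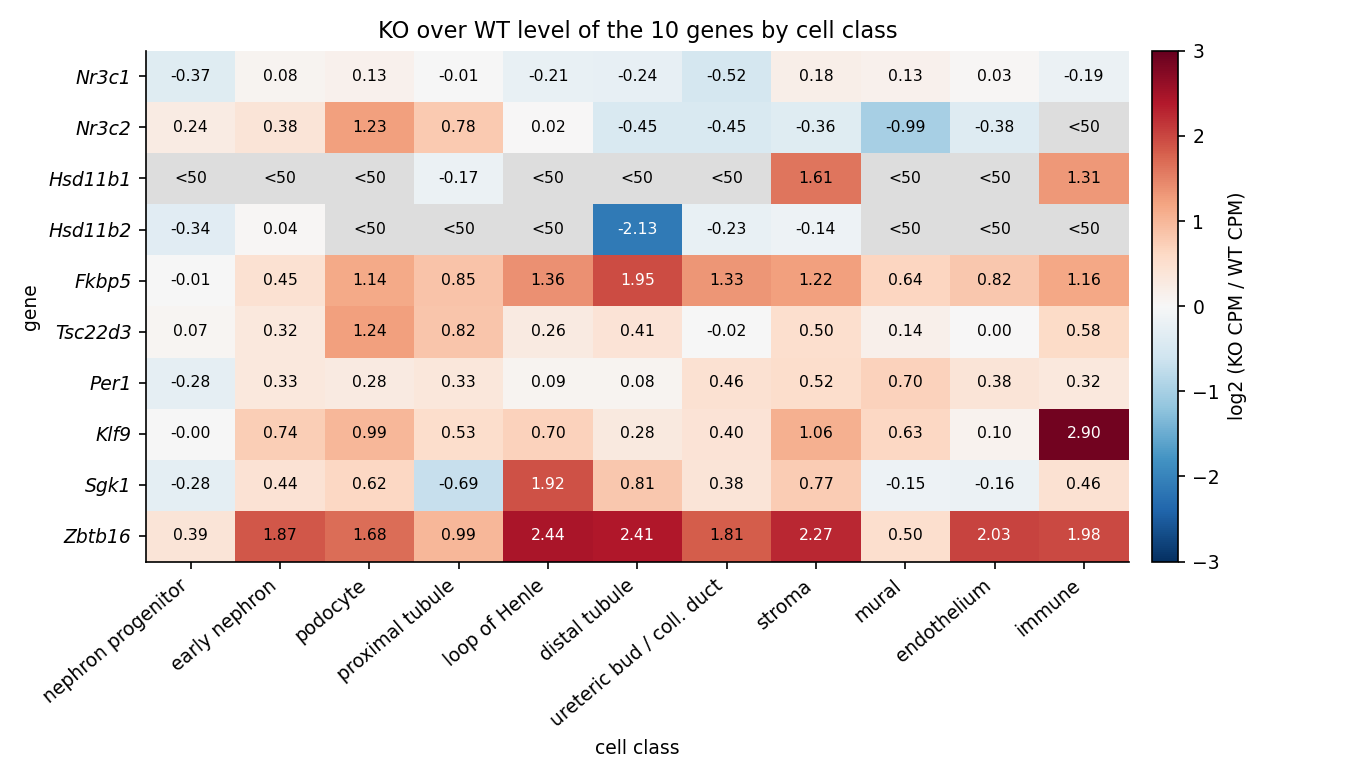
Rows are the 10 genes and columns the 11 cell classes; each cell gives the log2 of KO CPM over WT CPM, red for higher and blue for lower in the KO library, and grey where both libraries together gave under 50 UMIs. The Zbtb16 row is above 0 in all 11 classes and the Fkbp5 row in all but the nephron progenitors, where their log2 ratios are 0.39 and -0.01, while the Nr3c1 row stays between -0.52 and 0.18.

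The glucocorticoid receptor gene Nr3c1 was found in every class and differed little between the libraries. Its KO over WT ratio lay between 0.695 in the ureteric bud and collecting duct and 1.13 in stroma, and 0 of 11 classes passed 1.5-fold. In stroma it had 2144 UMIs (123 CPM) in the WT and 3945 (139 CPM) in the KO library, a ratio of 1.13 (interval 1.07 to 1.19). In endothelium it had 2068 UMIs (192 CPM) and 3373 (195 CPM), a ratio of 1.02 (0.964 to 1.08). These are counts of RNA and not of receptor protein, and the part of Nr3c1 in the Zbtb16 values was not tested. The lowest Nr3c1 levels were in nephron progenitors, with 714 UMIs (45.5 CPM) in the WT and 378 (35.2 CPM) in the KO library. In distal tubule the ratio of 0.848 became 2.47 when its 2 clusters were weighted equally, and the smaller cluster held 26 WT and 7 KO cells.

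The mineralocorticoid receptor gene Nr3c2 (chr8:76899442-77245012, plus strand, GRCm38) was concentrated in the distal nephron and collecting system, where aldosterone acts. It had 985 UMIs (401 CPM) in WT and 417 (294 CPM) in KO distal tubule, a ratio of 0.734 (0.653 to 0.823). In the ureteric bud and collecting duct it had 1566 UMIs (183 CPM) and 538 (134 CPM), a ratio of 0.731. In loop of Henle cells the libraries were level, with 968 UMIs (118 CPM) and 1356 (119 CPM). Endothelium was lower in the KO library, with 543 UMIs (50.3 CPM) and 668 (38.7 CPM), and a ratio of 0.768. Proximal tubule went the other way, with 449 UMIs (19.1 CPM) and 686 (32.8 CPM), a ratio of 1.72 (1.52 to 1.94). The largest departures were in classes with few UMIs: 29 and 41 in podocytes (ratio 2.34) and 29 and 22 in mural cells (ratio 0.504). The podocyte ratio was 0.827 after thinning, a random draw of 3000 UMIs from each cell with at least that many. Only 5 WT and 4 KO podocytes then had an Nr3c2 UMI.

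The activating enzyme gene Hsd11b1 (chr1:193221634-193264075, minus strand) was sparse, and reached 50 UMIs in 3 of 11 classes. In proximal tubule it had 231 UMIs (9.81 CPM) in the WT and 183 (8.75 CPM) in the KO library, a ratio of 0.892 (0.730 to 1.09). In stroma it had 62 UMIs (3.55 CPM) and 309 (10.9 CPM), a ratio of 3.06 (2.32 to 4.09). Most of these stromal UMIs lay in 2 clusters. That led by Clca3a1, Zim1 and Igfbp3 held 41 and 163 UMIs, and the cycling cluster led by Aspm, Pimreg and Hmmr 6 and 75. Few cells carried the gene, 4.69% of WT and 9.74% of KO stroma cells. The top 1% of cells held 37.1% of the WT and 38.5% of the KO stromal UMIs, with up to 27 in a KO cell. In immune cells it had 8 and 52 UMIs, a ratio of 2.47 that turned to 0.777 when doublet candidates were kept. The gene overlaps Lamb3 on the opposite strand, with 550 and 338 UMIs of Lamb3 in the whole libraries, and whether counting used strand is not stated in the sources used here.

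The inactivating enzyme gene Hsd11b2 (chr8:105518755-105523988, plus strand) reached 50 UMIs in 5 classes and was lower in the KO distal tubule. There it had 349 UMIs (142 CPM) in the WT and 46 (32.5 CPM) in the KO library, a ratio of 0.228 (0.164 to 0.311). Nearly all of it lay in the cluster led by Slc12a3, S100g and Tmem52b, with 349 and 44 UMIs in 48 WT and 36 KO cells. When both distal clusters were weighted equally the ratio became 1.12, with 0 and 2 UMIs in the small cluster. Slc12a3, the salt cotransporter that serves as a marker of this class, itself went from 3614 to 303 UMIs, so the distal cells of the libraries differed in a defining marker, and its part in the Hsd11b2 value was not tested. The class's median depth also differed, at 7032 UMIs per WT and 29668 per KO cell.

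Elsewhere Hsd11b2 was closer to level. In the ureteric bud and collecting duct it had 495 UMIs (57.9 CPM) and 198 (49.3 CPM), a ratio of 0.851 (0.718 to 1.01). Nephron progenitors had 985 UMIs (62.8 CPM) and 534 (49.7 CPM), a ratio of 0.791 (0.710 to 0.879). Their thinned share of cells with an Hsd11b2 UMI was 16.6% in the WT and 13% in the KO library, against 2.26% and 1.12% of stroma cells. Loop of Henle cells held 32 UMIs (3.89 CPM) in the WT and 2 (0.176 CPM) in the KO library, under the minimum for a comparison but not level. Intercalated cells, the acid-base cells of the collecting duct, had 533 UMIs (186 CPM) in the WT and 85 (99.4 CPM) in the KO library. That is a ratio of 0.534 (0.420 to 0.673).

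**Figure D2:**
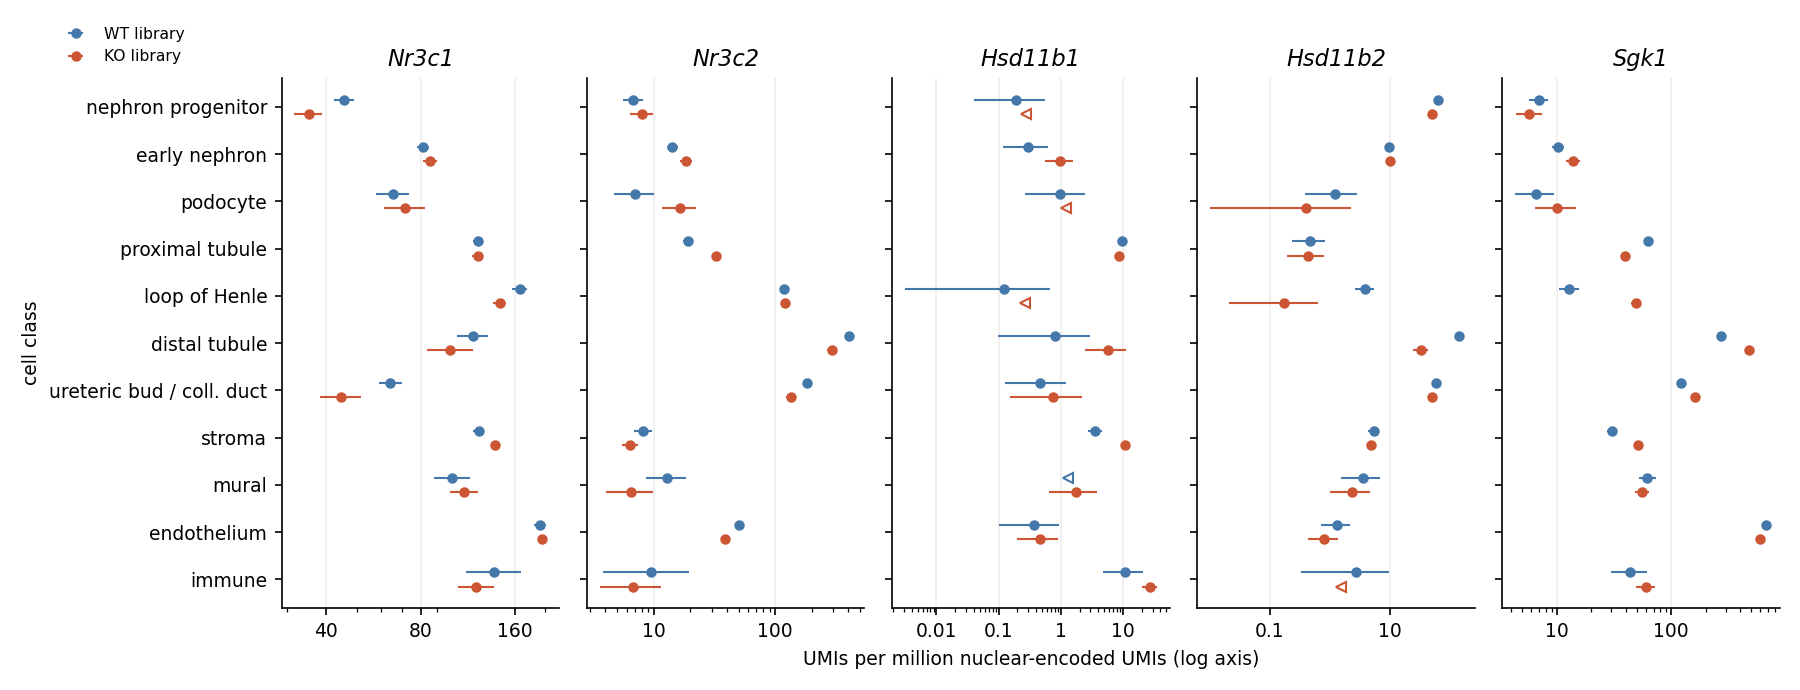
CPM (log axis, a separate range per gene) in each class for the receptors, the enzymes and Sgk1; bars are exact Poisson intervals and open triangles mark the limit set by 3 UMIs where a library had 0. Nr3c1 points of the libraries lie close together in each class, Hsd11b2 separates in distal tubule (142 and 32.5 CPM) and Sgk1 in loop of Henle (12.9 and 48.7 CPM).

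Fkbp5 (chr17:28399094-28517527, minus strand) encodes a co-chaperone that lowers hormone binding by the receptor and is induced by it. It was at least 1.5-fold higher in the KO library in 9 of 11 classes, with ratios from 0.991 in nephron progenitors to 3.87 in distal tubule. In stroma it had 957 UMIs (54.7 CPM) in the WT and 3631 (128 CPM) in the KO library, a ratio of 2.33 (2.17 to 2.51). In endothelium it had 687 UMIs (63.7 CPM) and 1939 (112 CPM), a ratio of 1.76 (1.62 to 1.93). In loop of Henle it had 764 UMIs (92.8 CPM) and 2710 (239 CPM), a ratio of 2.57 (2.37 to 2.79). Immune cells had 96 UMIs (130 CPM) and 564 (292 CPM), a ratio of 2.24, within which the macrophage-like cluster led by C1qb, C1qa and Pf4 gave 2.46 (1.95 to 3.15). The distal tubule ratio fell to 1.88 at a mitochondrial limit of 10%, and the ureteric ratio of 2.51 to 1.56 after thinning.

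Fkbp5 in early nephron cells differed by cluster. Cells of the Lgr5, Kcnc2 and Kcnh8 cluster had 543 UMIs (37.2 CPM) and 669 (68.6 CPM), a ratio of 1.84 (1.64 to 2.07). Those of the Tmem132c, Pcp4 and Plpp4 cluster had 599 UMIs (66.5 CPM) and 410 (62.8 CPM), a ratio of 0.944 (0.830 to 1.07). Both progenitor clusters were level, at 1.03 and 1.0. Fkbp5 overlaps small or antisense gene models, of which Gm22146 had 331 and 630 UMIs in the whole libraries.

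Tsc22d3 (chrX:140539528-140600659, minus strand) encodes GILZ, an anti-inflammatory leucine zipper protein. It was at least 1.5-fold higher in the KO library in 2 of 11 classes. Podocytes had 249 UMIs (60.2 CPM) and 355 (142 CPM), a ratio of 2.36 (2.0 to 2.79). Proximal tubule had 785 UMIs (33.3 CPM) and 1234 (59.0 CPM), a ratio of 1.77 (1.62 to 1.94), but its clusters differed. The cluster led by Slc5a12, Kcnip4 and Gpx3, which held 70 WT and 219 KO cells, gave 2.32 (1.87 to 2.92), and that led by Kap, Serpina6 and Slc7a13, with 227 WT and 46 KO cells, gave 0.921 (0.710 to 1.18). In endothelium Tsc22d3 was level, with 738 UMIs (68.4 CPM) and 1185 (68.6 CPM), and in stroma it had 829 UMIs (47.4 CPM) and 1908 (67.0 CPM), a ratio of 1.41 (1.30 to 1.54).

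Per1 (chr11:69095217-69109960, plus strand), a repressor of the circadian clock that glucocorticoids also induce, passed 1.5-fold in 1 of 11 classes, the fewest of the 5 hormone-induced genes. Its ratio was between 0.823 in nephron progenitors and 1.63 in mural cells, where it had 67 UMIs (29.6 CPM) and 164 (48.2 CPM). After thinning the mural ratio was 0.900, and in distal tubule a ratio of 1.06 ranged from 0.502 to 4.86 over the alternatives. In stroma Per1 had 667 UMIs (38.1 CPM) and 1557 (54.7 CPM), a ratio of 1.43 (1.31 to 1.57), and in endothelium 345 UMIs (32.0 CPM) and 719 (41.6 CPM), a ratio of 1.30 (1.14 to 1.48).

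Klf9 (chr19:23141226-23168134, plus strand), a zinc finger transcription factor, was at least 1.5-fold higher in 6 of 11 classes. In stroma it had 2770 UMIs (158 CPM) in the WT and 9397 (330.1 CPM) in the KO library, a ratio of 2.08 (2.0 to 2.18). In endothelium, in contrast to Zbtb16 and Fkbp5, it was nearly level, with 1704 UMIs (158 CPM) and 2932 (169.8 CPM), a ratio of 1.07 (1.01 to 1.14). Loop of Henle cells had 1778 UMIs (216 CPM) and 3987 (351 CPM), a ratio of 1.63 (1.54 to 1.72). The highest ratio, 7.49 in immune cells, rests on 3 WT and 59 KO UMIs, has an interval from 2.44 to 37.3 and was 2.37 with doublet candidates kept. The podocyte ratio of 1.99 was 1.01 after thinning.

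Sgk1 (chr10:21882184-21999903, plus strand) encodes a kinase that raises sodium channel activity downstream of both receptors, and its direction depended on the class. In loop of Henle it had 106 UMIs (12.9 CPM) in the WT and 553 (48.7 CPM) in the KO library, a ratio of 3.78 (3.07 to 4.70) that stayed between 3.20 and 4.44 over the alternatives. Distal tubule had 671 UMIs (273 CPM) and 677 (478 CPM), a ratio of 1.75 (1.57 to 1.95). Endothelium had the most UMIs, 7235 (671 CPM) and 10335 (599 CPM), and a ratio of 0.892 (0.866 to 0.920). Of the endothelial cells thinned to 3000 UMIs, 74.9% in WT and 70.7% in KO had an Sgk1 UMI. Stroma had 527 UMIs (30.1 CPM) and 1460 (51.3 CPM), a ratio of 1.70. Within stroma the cluster led by Lrriq1, Synpo2 and Penk gave 2.58 (1.96 to 3.44), while that led by Khdrbs2, Gria1 and Ntn1 gave 0.747 (0.545 to 1.02).

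In proximal tubule Sgk1 was lower in the KO library as a whole, with 1484 UMIs (63.0 CPM) and 819 (39.2 CPM), a ratio of 0.621 (0.570 to 0.677). This value mixes clusters that the libraries filled unequally. The cluster led by Kap, Serpina6 and Slc7a13 had the highest WT level (108 CPM) and gave a ratio of 0.744 (0.633 to 0.870). The cluster led by Slc5a12, Kcnip4 and Gpx3 gave 1.28 (1.02 to 1.61), so the direction was not shared. In podocytes Sgk1 had 27 and 25 UMIs, a ratio of 1.53 that became 4.07 with doublet candidates kept.

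Zbtb16 (chr9:48654297-48836222, minus strand) had 4861 UMIs (38.1 CPM) in the cells of the WT library and 19625 (152 CPM) in those of the KO library. No other gene of the GENCODE M21 annotation overlaps it. It was at least 1.5-fold higher in the KO library in 9 of 11 classes, inside and outside the Six2 lineage. In stroma it had 898 UMIs (51.3 CPM) and 7036 (247 CPM), a ratio of 4.81 (4.49 to 5.17). In endothelium it had 651 UMIs (60.4 CPM) and 4269 (247 CPM), a ratio of 4.10 (3.77 to 4.46), or 2.71 when a cell could add at most 5 UMIs. Zbtb16 was among the variable genes used to cluster the cells; clustered without the 10 genes and the further targets, the ratios were 4.56 and 4.10.

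Loop of Henle cells were not among the classes named in the choice of Zbtb16, but they come from the same libraries. Their values are therefore a description too. They had 268 UMIs (32.5 CPM) and 2003 (176 CPM), a ratio of 5.42 (4.77 to 6.18). Distal tubule had 83 UMIs (33.8 CPM) and 254 (179 CPM), a ratio of 5.30 (4.12 to 6.88). The ureteric bud with its collecting duct, which Six2-Cre does not mark, had 123 UMIs (14.4 CPM) and 202 (50.3 CPM), a ratio of 3.50 (2.78 to 4.41). Early nephron cells had 597 UMIs (25.3 CPM) and 1508 (92.6 CPM), a ratio of 3.66 (3.32 to 4.03) that was 1.72 with coarser clusters (resolution 0.5). Immune cells had 16 UMIs (21.7 CPM) and 166 (85.8 CPM), a ratio of 3.95 (2.36 to 7.07). Proximal tubule had 1510 UMIs (64.1 CPM) and 2668 (128 CPM), a ratio of 1.99 (1.87 to 2.12), and its 3 clusters gave 1.74, 1.94 and 2.2.

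The smallest Zbtb16 ratios were in mural cells and nephron progenitors. Mural cells, the smooth muscle and renin cells of vessels, had 214 UMIs (94.6 CPM) and 455 (134 CPM), a ratio of 1.41 (1.20 to 1.67). Nephron progenitors had 61 UMIs (3.89 CPM) and 55 (5.12 CPM), a ratio of 1.31 (0.896 to 1.92), which became 3.21 with doublet candidates kept and 0.978 for cells of at least 2000 UMIs and 1000 genes.

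The order of Zbtb16 levels changed between the libraries. In the WT library it ran upward from nephron progenitors through ureteric bud and collecting duct, podocytes, immune cells, early nephron, loop of Henle, distal tubule, stroma, endothelium and proximal tubule to mural cells at 94.6 CPM. Neighbours in that order whose intervals overlapped were ureteric bud and podocytes, podocytes and immune cells, immune cells and early nephron, loop of Henle and distal tubule, and endothelium and proximal tubule. In the KO library the order was the same up to early nephron, then proximal tubule, mural cells, loop of Henle, distal tubule, stroma and endothelium. Stroma and endothelium could not be told apart there, both at 247 CPM, and the intervals of proximal tubule and mural cells, of loop of Henle and distal tubule, of ureteric bud and podocytes, and of immune cells and early nephron overlapped as well. Mural cells thus had the highest Zbtb16 level of the WT classes and stood below 4 classes in the KO library.

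A larger share of cells carried Zbtb16 in the KO library. After each cell was thinned to 3000 UMIs, 10.4% of 1061 WT and 40.6% of 1787 KO stroma cells had a Zbtb16 UMI, and 10.5% of 295 WT and 42.8% of 460 KO endothelial cells. In nephron progenitors, the class with the least Zbtb16, the shares were 0.780% and 1.65%. Free RNA in the droplets was not measured, and its part in these shares was not tested. Unthinned, the shares were 20.5% and 65.6% in stroma, at median depths of 15468.5 and 14492 UMIs, and 7.57% and 9.20% in progenitors, at 24790 and 21428 UMIs. Single cells could be very high: up to 106 Zbtb16 UMIs in a KO stroma cell, 90 in a KO endothelial cell and 155 in a KO loop of Henle cell. The top 1% of cells held 10.3% of the KO and 20.3% of the WT stromal Zbtb16 UMIs.

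**Figure D3:**
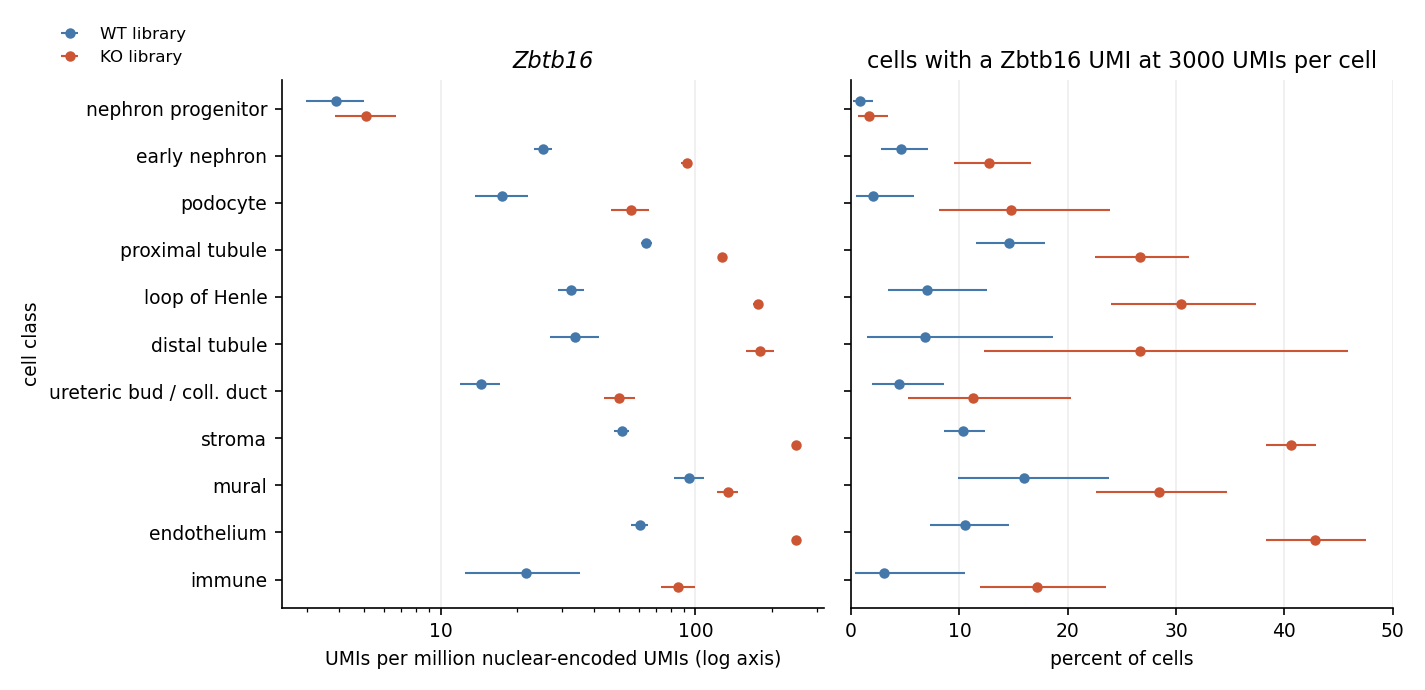
Left, Zbtb16 CPM (log axis) in each class and library, with exact Poisson intervals; right, the percent of cells with a Zbtb16 UMI after thinning each cell to 3000 UMIs, with exact binomial intervals. KO points lie to the right of WT points in each class, by least in nephron progenitors (3.89 and 5.12 CPM) and mural cells (94.6 and 134 CPM).

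Within stroma the WT library held Zbtb16 mainly in a few clusters, and the KO library held it in each. The cluster led by Dlk1, Postn and Clec3b had 118 UMIs (185 CPM) in the WT and 642 (685 CPM) in the KO library, a ratio of 3.71 (3.04 to 4.55). The cluster led by Clca3a1, Zim1 and Igfbp3 had 669 UMIs (159 CPM) and 3318 (423 CPM), a ratio of 2.66 (2.45 to 2.89). These 2 clusters held most of the WT stromal Zbtb16, and their ratios were the smallest of the 6.

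The other clusters started from low WT levels. That led by Khdrbs2, Gria1 and Ntn1 had 15 UMIs (2.63 CPM) in 324 WT and 468 (77.4 CPM) in 362 KO cells, a ratio of 29.4 (17.7 to 53.0). That led by Lrriq1, Synpo2 and Penk had 21 UMIs (8.21 CPM) and 1089 (172 CPM), a ratio of 21.0 (13.7 to 34.1). The cycling cluster led by Aspm, Pimreg and Hmmr gave 14.5 (10.4 to 20.7), and that led by Unc13c, Smoc2 and Zfp536 gave 8.90 (6.42 to 12.7). An unnamed cluster led by Nrxn3, Nts and Kcnip1 had 25 UMIs (15.8 CPM) and 186 (47.6 CPM), a ratio of 3.01 (1.98 to 4.77).

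The WT level is the denominator of each ratio, so clusters with low WT levels tend to have higher ratios. Stroma was also used to pick Zbtb16, so the order of its cluster ratios is a description. Fkbp5 did not follow that order. Fkbp5 ratios in the 6 stroma clusters ran from 1.34 (1.14 to 1.58), in the Khdrbs2 cluster with the steepest Zbtb16 ratio, to 3.61 (2.57 to 5.21) in the Unc13c cluster. Klf9 ratios ran from 1.48 in the Dlk1 cluster to 3.38 (2.94 to 3.91) in the cycling cluster. Nr3c1 was level in all 6, between 0.919 and 1.16. The libraries filled the clusters unequally, for example with 177 WT and 437 KO cells in the Lrriq1 cluster. Summed markers of endothelium inside the stroma class, all 10 of 10 present, were at 78.3 CPM in the WT and 153 CPM in the KO library, against 8232 and 7973 CPM in endothelium itself, and their part in the stromal values was not tested.

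**Figure D4:**
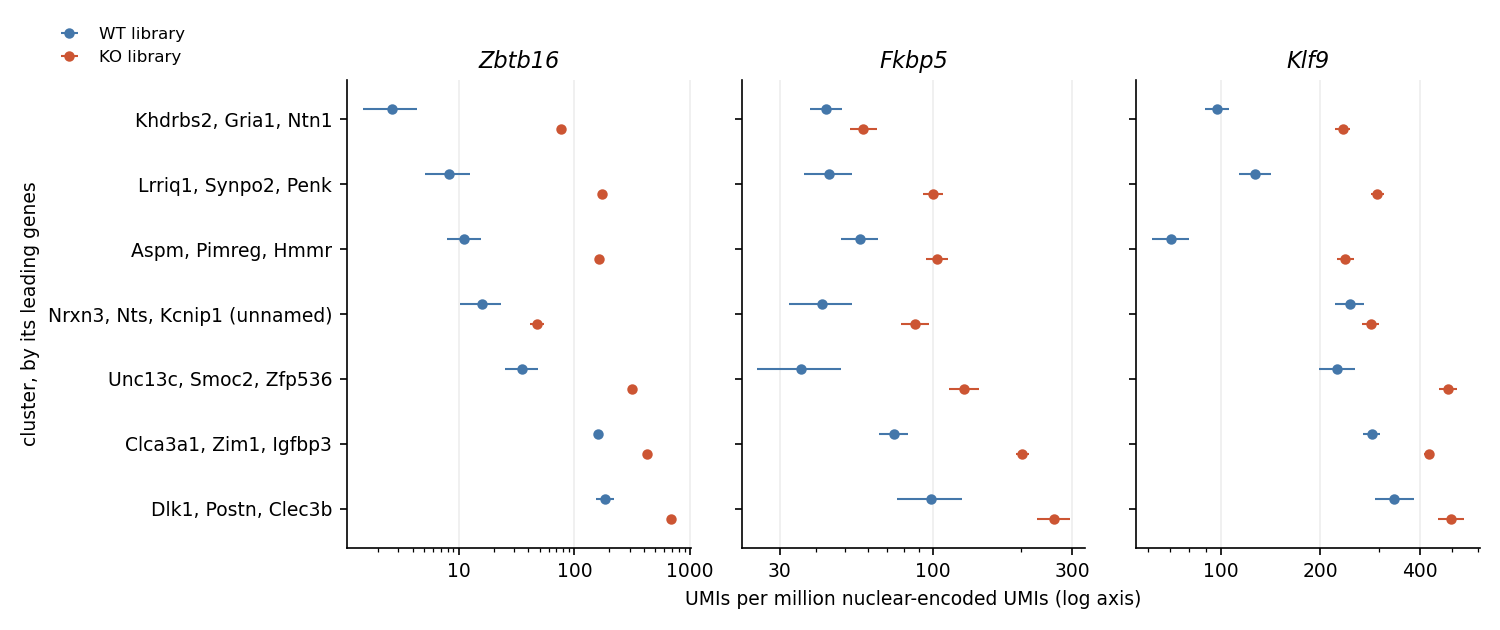
CPM (log axes) of Zbtb16, Fkbp5 and Klf9 in the 6 stroma clusters and an unnamed cluster, ordered by WT Zbtb16 level, with exact Poisson intervals. For Zbtb16 the gap between libraries is widest in the top row (ratio 29.4) and smaller in the bottom pair (2.66 and 3.71). The unnamed cluster lies outside that order, and Fkbp5 shows no such order.

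Beyond the 10 genes, a list of 31 further glucocorticoid targets was counted in the same way. It too was chosen with earlier results of these data known, so its counts are a description. In stroma 27 could be compared and 12 were at least 1.5-fold higher in the KO library, or 44.4%, where 4.81% of all genes were; 1 was lower, Pck1. The list's median log2 ratio was 0.37 beside 0.00 for all genes. Of the 12, those at the low end lay close to the limit: Anxa1 at 1.53 was just inside and Cebpb at 1.41 just outside. The count depended on the processing and ran from 6 to 14 over the alternatives: it was 7 for cells of at least 2000 UMIs and 1000 genes, 7 with finer clusters (resolution 2), 6 when cells were clustered without these genes and 14 with a minimum of 1 UMI per gene.

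The named members of the list in stroma were metallothioneins and a metabolic regulator. Mt1, which encodes a metal-binding protein, had 220 UMIs (12.6 CPM) in the WT and 1182 (41.5 CPM) in the KO library, a ratio of 3.30 (2.86 to 3.83). Mt2 had 27 and 122 UMIs, a ratio of 2.78 (1.82 to 4.38). Klf15, a transcription factor of amino acid and glucose metabolism, had 98 and 367 UMIs, a ratio of 2.30 (1.84 to 2.91). Pck1, the gluconeogenic enzyme gene, had 46 and 31 UMIs, a ratio of 0.414 (0.254 to 0.667), and the transglutaminase gene Tgm2 had a ratio of 0.854 (0.736 to 0.993). Pck1 is a proximal tubule gene, and summed proximal tubule markers in the stroma class fell from 68.0 to 40.2 CPM; their part in its value was not tested.

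In endothelium 24 of the 31 could be compared, and 4 (16.7%) were at least 1.5-fold higher, where 3.62% of all genes were; 0 were lower. The list's median log2 ratio was 0.23 beside -0.01 for all genes. The 4 were Mt1, Per2, Fam107a and Map3k6. Mt1 had 35 UMIs (3.24 CPM) and 194 (11.2 CPM), a ratio of 3.46 (2.41 to 5.12). Per2, a clock repressor related to Per1, had 127 and 406 UMIs, a ratio of 2.0 (1.63 to 2.46), and Fam107a 21 and 69, a ratio of 2.05 (1.24 to 3.52). Anxa1, whose protein limits inflammation, was on the other side at 0.731 (0.673 to 0.794), with 1053 and 1232 UMIs. Mt1 was also higher outside these classes. It had 5316 and 23471 UMIs in loop of Henle (ratio 3.20) and 1368 and 3851 in proximal tubule (3.17). Nephron progenitors had 96 and 232, a ratio of 3.52 (2.77 to 4.52), and immune cells were level at 0.992. Over the 11 classes, the share of targets higher ran from 13.0% in ureteric bud and collecting duct (all genes 3.72%) to 44.4% in stroma. Nephron progenitors had 4 of 23 higher (17.4%, all genes 4.22%) and 2 lower (4.38%). Loop of Henle had 9 of 25 higher (36%, all genes 10.2%) and 6 lower (13.8%).

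**Figure D5:**
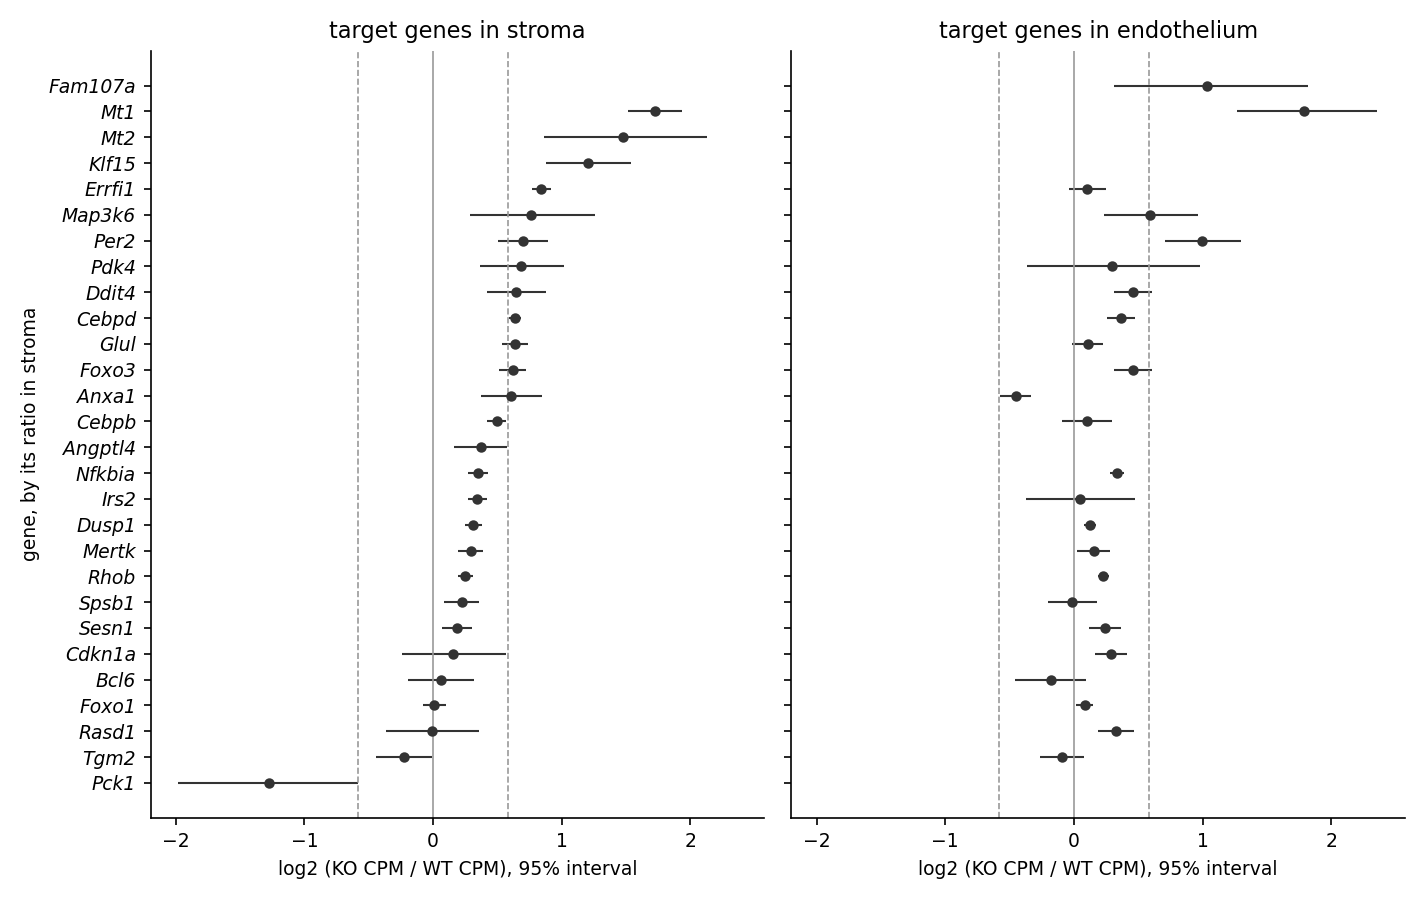
Each point is a glucocorticoid target gene with at least 50 UMIs in the class, the x axis is the log2 of KO over WT CPM with its interval, solid lines mark 0 and dashed lines a ratio of 1.5 in either direction. In stroma 12 of 27 points lie right of the upper dashed line, in endothelium 4 of 24.

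Of 16 chaperone and cofactor genes that serve the receptor, 0 passed 1.5-fold in either direction in stroma, beside 4.81% of all genes higher and 3.14% lower. Hsp90ab1, which encodes a chaperone of the receptor, had 44945 and 75523 UMIs there, a ratio of 1.03 (1.02 to 1.04). Stip1, a co-chaperone that hands the receptor to Hsp90, was at 0.773 (0.720 to 0.831), and the coactivator gene Ncoa1 at 1.16 (1.11 to 1.21). H6pd, which supplies the cofactor for the enzyme of Hsd11b1, was at 1.18 (1.07 to 1.31). In endothelium the efflux pump gene Abcb1a had 4 UMIs in the WT and 84 in the KO library, a ratio of 13.1 (4.94 to 49.3), and was the only 1 of 16 past 1.5-fold there (3.62% of all genes higher). In proximal tubule 3 of 16 were higher (9.08%), and in distal tubule 2 of 13 (11.8%), Hsp90aa1 at 1.55 and the cofactor gene Nrip1 at 1.61, named after their values were seen.

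Of the transport genes that aldosterone regulates, 0 of 10 passed 1.5-fold in stroma (4.81% of all genes higher and 3.14% lower). In endothelium 0 of 7 did (3.62% and 2.65%). Both counts lie near those shares, and the genes have no main role in either class. Some intervals still excluded 1, such as those of Usp2 (1.38) and Stk39 (0.864) in stroma and Stk39 (0.748) in endothelium. In distal tubule 2 of 13 (15.4%) were higher and 3 lower, where 11.8% of all genes were higher and 13.7% lower; these were looked up after the counts were seen. Scnn1a, the alpha subunit gene of the epithelial sodium channel, had 247 and 331 UMIs, a ratio of 2.32 (1.96 to 2.75), and the kinase gene Stk39 was at 1.65. The gamma subunit gene Scnn1g had 516 and 159 UMIs, a ratio of 0.534 (0.444 to 0.639), the kinase gene Wnk1 was at 0.598, and the third was the class marker Slc12a3. The subunits of 1 channel thus stood on opposite sides.

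Clock genes other than Per1 and Per2 were 0 of 12 past 1.5-fold in stroma (4.81% of all genes higher and 3.14% lower). In endothelium 1 of 11 was higher (3.62%), Ciart, with 16 and 39 UMIs. In podocytes 4 of 12 were higher (10.6%), and in distal tubule 5 of 11 were higher (11.8%) and 1 lower (13.7%). The highest distal ratios, looked up after the counts were seen, were those of the repressor gene Bhlhe41, with 11 and 92 UMIs and a ratio of 14.5 (7.73 to 30.04), and of the clock activator gene Npas2, with 15 and 51 UMIs and a ratio of 5.89 (3.26 to 11.3). Of 15 genes that cell dissociation induces, 1 was higher in stroma (4.81% of all genes), Atf3 at 1.53 (1.45 to 1.61), and 0 lower (3.14%). In endothelium 0 were higher (3.62%) and 2 lower (2.65%), Hspb1 at 0.622 and Hspa1b at 0.649. In distal tubule 4 of the 15 were higher (11.8%) and 2 lower (13.7%). The median log2 ratio of that list was nonetheless 0.25 in stroma and 0.20 in endothelium, with summed levels of 9559 and 11463 CPM in stroma and 7243 and 8938 CPM in endothelium. Without the targets that dissociation also induces, the stroma count of 12 was 10. Fewer than 27 targets were then compared, so the 2 counts do not share a base. The part of dissociation in the other values was not tested.

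The genes whose level was most like that of Zbtb16 were sought over 22 points, 11 classes in each of the 2 libraries, by Pearson correlation of log2(CPM + 5) among 14082 genes. The points share library and depth, so the coefficients are descriptions. Ltbr, a receptor of the tumour necrosis factor family, came first (r = 0.81), followed by Hif3a (0.80), Entr1 (0.78), Tbcb (0.76), Ap1s1 (0.76), Rer1 (0.75), Acot9 (0.74), Ralb (0.69), Plgrkt (0.69) and Sri (0.69). Most of these followed the order of classes and differed little in size between the libraries in stroma and endothelium: Ltbr had 32.2 and 36.3 CPM in WT and KO stroma. Hif3a, a hypoxia-inducible factor subunit gene, differed more, with 27.2 and 69.0 CPM in stroma and 31.0 and 79.7 CPM in endothelium. Its level was higher in the KO library in 11 of 11 classes, as was that of Plgrkt. The others were higher in 10 classes (Entr1, Ap1s1), 9 (Ltbr, Rer1, Sri), 8 (Ralb), 7 (Tbcb) and 6 (Acot9). Among the 10 genes Fkbp5 ranked 16 (r = 0.67), Nr3c1 27 (0.64) and Klf9 34 (0.63), and Hsd11b2 was at the far end (r = -0.51).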

How the data were processed

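Single-cell RNA-seq counts of 2 kidney libraries, 1 per group, were analysed; p-values therefore do not exist for these comparisons. Per the labels' protocols, libraries were made with a droplet 3′ kit of 10x Genomics. The submitters' processing notes name GRCm38 (mm10), STAR 2.7.2a, Cell Ranger and bcl2fastq 2.20.0; per the file headers the WT matrix came from Cell Ranger 7.0.0 and the KO matrix from 7.1.0. The authors deposited raw UMI counts per gene and called barcode, and 0 columns belonged to no sample. How strand and introns were handled is not stated in the sources used here.

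Barcodes with at least 1000 UMIs, 500 genes and at most 20% mitochondrial UMIs were kept (4187 WT, 5040 KO). Scrublet in scanpy 1.11.5 called 3 and 2 doublets, under the 0.5% taken as usable, so the expected share of highest scores (0.8% per 1000 barcodes; 187 and 242) was removed. Clustering used 2000 variable genes, among them Zbtb16, Sgk1 and Nr3c2 of the 10 genes, 40 components, 20 neighbours and Leiden resolution 1 (igraph 0.11.9), and a cluster whose next list scored at least 0.7 was split at resolution 0.2. Clusters were named from marker lists with a score of at least 0.35 and a lead of 0.05, thresholds set after seeing the data; 421 WT and 459 KO cells stayed unnamed. Intercalated cells (42 and 14) were left out of counts over classes.

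UMIs were summed per class and library. Ratios carry exact conditional binomial intervals, levels exact Poisson and shares Clopper-Pearson intervals, at 95%; UMIs of a library are not replicates, so they cover counting error only. Simulated counts were used to check the intervals. The 10 genes are reported throughout. Of each pathway list, the 3 highest and 3 lowest genes in stroma and endothelium, ranked by the interval bound nearest to 1, were eligible to be named, and the 10 genes most correlated with Zbtb16 among those of at least 200 UMIs. Members and lists were chosen with earlier results of these data known. Alternatives varied filters, doublets, resolution, scaling (TMM in edgeR 4.0.16, median of ratios in DESeq2 1.42.0), weighting and thinning. Counting the unnamed Nrxn3 cluster with stroma, leaving out dissociation genes and limiting each cell to 5 UMIs were added after seeing the data. Work used Python 3.11.15 and R 4.3.3.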

Additional observations from a re-analysis of the deposited data

Results flagged for a closer look

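The KO over WT ratio of Sgk1 stood on opposite sides of 1 in 2 nephron segments, at 3.78 in loop of Henle and 0.621 in proximal tubule. Each value compares 1 WT with 1 KO library, and the difference between the segments was not tested. The proximal value was not shared by its clusters, which ranged from 0.744 to 1.28.

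Nr3c2 likewise stood at 2.34 in podocytes and 0.504 in mural cells, on 29 and 41 and on 29 and 22 UMIs. This difference was not tested. The podocyte value was 0.827 after thinning, when only 5 WT and 4 KO podocytes had an Nr3c2 UMI.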

How the results depend on the processing

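No paired analysis was possible because each group has 1 library. The Zbtb16 ratio in stroma (4.81) was 4.42 at resolution 2, 4.21 as a mean over cells, 3.98 after thinning and 4.13 with at most 5 UMIs per cell. In endothelium (4.10) it was 3.46 as a mean over cells, 5.07 after thinning and 2.71 with at most 5 UMIs per cell, and Fkbp5 there (1.76) was 1.55 after thinning. Targets at least 1.5-fold higher in KO stroma (12) were 7 for cells of at least 2000 UMIs, 7 at resolution 2 and 6 when clustered without these genes.

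Of 990 values under alternatives for 90 other ratios of the 10 genes, 826 stayed within the ratio's own interval, and 52, some of them within it, stood on the other side of 1. Of these, 39 belong to 22 ratios whose own interval held 1, among them Nr3c1 in distal tubule with clusters weighted equally (2.47) and, after thinning, Tsc22d3 (0.377) and Per1 (0.502) in distal tubule. The other 13 belong to ratios whose interval excluded 1. After thinning these were Tsc22d3 in loop of Henle (0.783), Per1 in ureteric bud (0.958) and mural cells (0.900), Sgk1 in early nephron (0.801) and Nr3c2 in podocytes (0.827). Sgk1 in early nephron was also 0.826 at a mitochondrial limit of 10%, 0.725 at resolution 0.5, 0.926 at resolution 2 and 0.942 when clustered without these genes. The others were Per1 in early nephron at resolution 0.5 (0.984), Per1 in podocytes as a mean over cells (0.944), Hsd11b1 in immune cells with doublet candidates kept (0.777) and Hsd11b2 in distal tubule with clusters weighted equally (1.12). The causes were not tested. TMM and median-of-ratios scaling changed 0 of these labels and shifted log2 ratios by at most 0.07 in size, in podocytes (-0.07). Depth limits Hsd11b1, which stayed under 50 UMIs in 8 of 11 classes, and Hsd11b2, in 6.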
